A study of Mus musculus with 24 samples.

Results

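The uroplakins are the membrane proteins that cover the luminal face of the normal urothelium, and the 5 mouse genes that encode them, Upk1a, Upk1b, Upk2, Upk3a and Upk3b, were followed here as markers of urothelial differentiation. They were taken by name, through the gene identifiers of the count table, and all 5 were found among its 53465 genes. RNA was measured in 24 BURP tumors, 3 from each of 8 lines. A BURP line is a bladder tumor raised by N-butyl-N-(4-hydroxybutyl)nitrosamine (BBN), given at 0.1% in the drinking water of C57BL/6NTac mice from 8 weeks of age for at most 36 weeks, and then passaged under the skin of hosts of the same sex. The study places 6 lines in a basal/squamous (Ba/Sq) subtype, of which BURP-12BaSq, BURP-17BaSq and BURP-18BaSq are male. The female lines are BURP-21BaSq, BURP-24BaSq and BURP-25BaSq. BURP-19NE (neuroendocrine-like) and BURP-16SR (stroma-rich) were both male. Each line descends from 1 donor tumor, so its 3 tumors are no separate carcinogenesis events, and p-values below measure the spread between these tumors. Bulk RNA of a subcutaneous allograft also holds host stroma. No normal bladder was analysed here, so levels are compared between tumors only.

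In the umbrella cells of the bladder, uroplakins are packed into stiff plaques of the apical membrane. Assembly begins in the endoplasmic reticulum, where the tetraspanin UPIa pairs with UPII and the tetraspanin UPIb pairs with UPIIIa or with its close relative UPIIIb. The plaques travel to the apical surface in fusiform vesicles, and loss of uroplakins is a common mark of basal and squamous bladder carcinoma. Upk3bl, a gene related to Upk3b and lying beside it, was described with them although it is not one of the 5.

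All 5 genes are protein coding and overlap no other annotated gene in GRCm38. The tetraspanin genes are Upk1a (ENSMUSG00000006313.5), on chromosome 7 from 30603092 to 30612847, and Upk1b (ENSMUSG00000049436.4), on chromosome 16 from 38773184 to 38800328. Upk2 (ENSMUSG00000041523.3) lies on chromosome 9 from 44452715 to 44454976. Upk3a (ENSMUSG00000022435.5) lies on chromosome 15 from 85017141 to 85022547. Upk3b (ENSMUSG00000042985.7) lies on chromosome 5 from 136038496 to 136046487, and Upk3bl (ENSMUSG00000006143.12) on the same strand of chromosome 5 from 136054492 to 136064326.

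RefSeq promoter sequence (GRCm38) was at hand for 4 of these 6 genes, Upk1a, Upk3a, Upk3b and Upk3bl. The 250 bases before the start of Upk3a and Upk3b are shown, since the counts of these 2 genes came mostly from 1 tumor each. Both are on the plus strand, at chr15:85016891-85017140 for Upk3a and chr5:136038246-136038495 for Upk3b. Capitals mark the letters GATAA, the core of the motif bound by GATA factors, read on either strand.
Upk3a: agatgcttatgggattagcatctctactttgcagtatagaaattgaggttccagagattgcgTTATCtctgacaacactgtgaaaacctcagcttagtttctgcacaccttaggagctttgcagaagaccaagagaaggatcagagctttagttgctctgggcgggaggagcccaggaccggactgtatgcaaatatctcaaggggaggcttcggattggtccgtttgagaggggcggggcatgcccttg
Upk3b: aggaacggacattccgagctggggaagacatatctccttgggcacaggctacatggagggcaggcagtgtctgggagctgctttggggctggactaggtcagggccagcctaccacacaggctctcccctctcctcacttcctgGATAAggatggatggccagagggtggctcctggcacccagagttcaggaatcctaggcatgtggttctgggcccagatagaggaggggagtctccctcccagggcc
In Upk3a the match begins 188 bases before the start and is read on the minus strand. In Upk3b it begins 106 bases before the start on the plus strand. GATAA occurred in 22.6% of all 32851 windows of this length and is therefore common. AACCNGTT, a form of the motif of grainyhead-like (GRHL) factors, occurred in 1.79% of windows and in 1 of these 4, beginning 9 bases before the RefSeq start of Upk3bl. The windows of Upk3bl and Upk1a end at RefSeq starts that lie inside the gene spans given above and overlap annotated exons, so they are not shown. TGTTTAC (FOXA factors, 3.17% of windows) and the direct repeat bound by PPARG with RXRA (0.0335%) were in none of the 4. Each motif was searched on both strands, no match overlapped another, and a match of letters is a description of the window only.

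Levels are given as CPM, counts scaled to a common library size, after TMM normalization over the 24 tumors, where total counts per tumor ran from 9295708 to 25370320. The smallest level a library could show was set at 3 counts, which came to between 0.106 and 1.34 CPM and covers counting error only. A pair of BURP-25BaSq libraries called for care. The library labelled C102-M1 (tumor 3) had a mean Pearson's r of log2 CPM of 0.968 with the 3 BURP-21BaSq tumors and of 0.892 with the other tumors of its own line, across 21383 genes that are not independent of each other. The library labelled C102-M30 (tumor 2) kept 3635913 of its 9778634 counts outside the ribosomal RNA genes Gm26917 and CT010467.1. Both were kept as labelled, and the tests, fold bounds and line correlations that they change are given without them too. No sequencing batch is given. Tumors are numbered 1 to 3 within a line by the order of the records.

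Uroplakin transcripts were scarce in every line. Of the 5 genes, no tumor had more than 4 above 3 counts, 10 tumors had 2, 7 tumors had 1 and 1 tumor (BURP-16SR tumor 1) had 0. The 5 genes summed to between 0.254 CPM in BURP-16SR tumor 1 and 28.7 CPM in BURP-25BaSq tumor 1, and the other high sums were 18.9 CPM in BURP-17BaSq tumor 1, 11.8 CPM in BURP-18BaSq tumor 2 and 11.6 CPM in BURP-25BaSq tumor 2. Different genes made these sums in different lines, Upk1b in BURP-17BaSq and BURP-18BaSq, and Upk2 with Upk3b in BURP-25BaSq. Of the assembly partners, Upk1a and Upk2 were both above 3 counts in 5 of 24 tumors, Upk1b and Upk3b in 2, and Upk1b and Upk3a in 1. In bulk RNA, fewer cells that make a transcript and less of it per cell cannot be told apart.

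**Figure D1:**
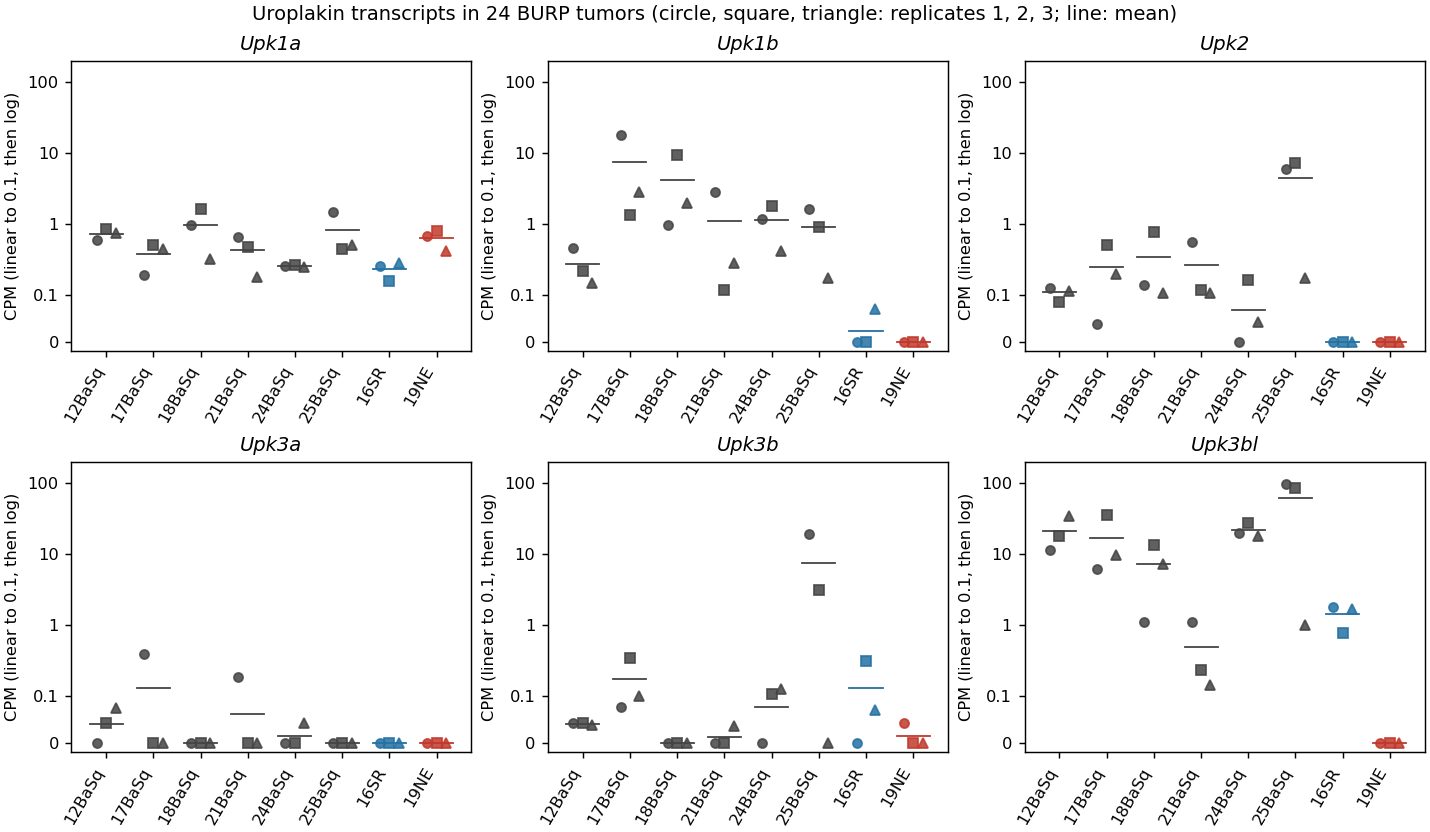
CPM of the 5 uroplakins and Upk3bl in each of 24 tumors by line, on an axis that is linear up to 0.1 CPM and logarithmic above; circles, squares and triangles are tumors 1, 2 and 3, horizontal lines are line means, and grey, blue and red are the Ba/Sq lines, BURP-16SR and BURP-19NE. Upk1b and Upk2 lie at or near 0 in BURP-16SR and BURP-19NE, and Upk2, Upk3b and Upk3bl are highest in tumors 1 and 2 of BURP-25BaSq.

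Per length, the uroplakins stood in the lower part of the transcriptome of the Ba/Sq tumors. Other genes linked to urothelium ranged from its lower part to near its top. Mean levels in RPKM (CPM per kilobase of exon, n = 18) were 1.19 for Upk1b, 0.843 for Upk2, 0.418 for Upk1a, 0.372 for Upk3b and 0.0368 for Upk3a. Of 21942 protein-coding genes, 48.8% had a lower mean RPKM than Upk1b and 26.8% a lower one than Upk3a. Upk3bl, at 16.6 RPKM, was above 91.1% of them. Psca, a surface antigen of luminal urothelium, was at 684 RPKM and above 99.9%. Mal, which encodes a membrane protein needed to insert uroplakin vesicles into the apical membrane, was at 151 RPKM and above 99.3%. The transcription factors Klf5, Elf3 and Grhl3, which act in urothelial differentiation, were above 98.5%, 98.4% and 94.7%. Pparg, the nuclear receptor that drives uroplakin expression in cultured urothelium, was lower, at 2.24 RPKM and above 56% of genes. Other members of the trafficking and luminal lists were also low. Acer2, Sytl2, Cyp4b1 and Snx31 were above 55.4%, 48.1%, 41.1% and 27.6% of genes.

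**Figure D2:**
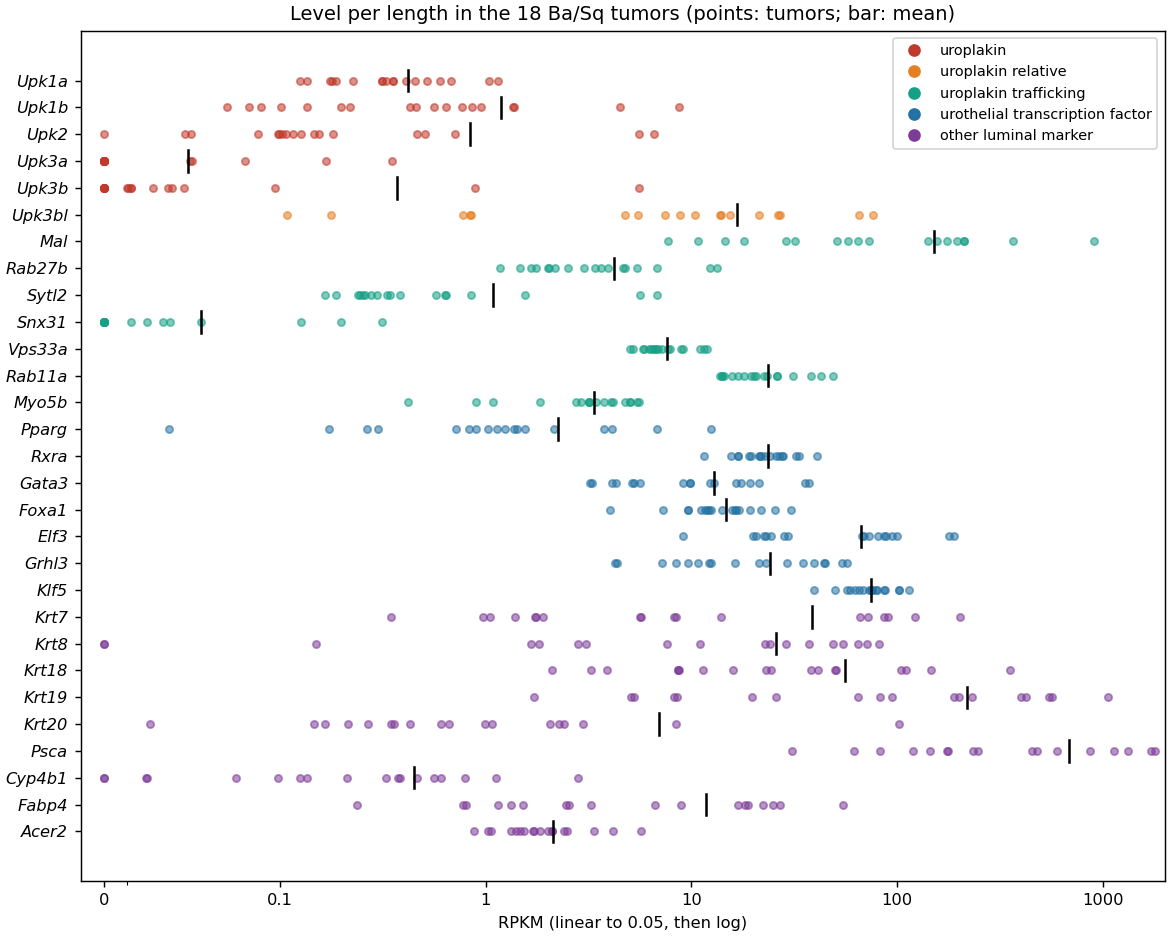
Level per exon length (RPKM, linear up to 0.05 and logarithmic above) of the uroplakins, Upk3bl and 3 gene lists in the 18 Ba/Sq tumors; points are tumors, black bars are means and colors are lists. The 5 uroplakin means lie between 0.0368 and 1.19 RPKM, against 16.6 for Upk3bl and 684 for Psca.

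Upk1a was the only uroplakin with a count in all 24 tumors, always low. Its values were 0.584, 0.850 and 0.740 CPM in BURP-12BaSq, 0.192, 0.504 and 0.444 in BURP-17BaSq, 0.961, 1.63 and 0.321 in BURP-18BaSq, 0.643, 0.464 and 0.177 in BURP-21BaSq, 0.255, 0.265 and 0.248 in BURP-24BaSq and 1.47, 0.448 and 0.506 in BURP-25BaSq. It was at 0.673, 0.791 and 0.409 CPM in BURP-19NE and at 0.254, 0.155 and 0.280 CPM in BURP-16SR. From BURP-18BaSq, the highest mean, down to BURP-16SR, the lowest, every line overlapped its neighbor in the order of means. The highest values, 1.63 CPM in BURP-18BaSq tumor 2 and 1.47 CPM in BURP-25BaSq tumor 1, rested on 19 and 33 counts.

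Upk1b varied widely among the Ba/Sq lines. It was at 18.2, 1.34 and 2.86 CPM in BURP-17BaSq (474, 16 and 58 counts), 0.961, 9.44 and 1.98 in BURP-18BaSq, 1.17, 1.80 and 0.413 in BURP-24BaSq, 2.85, 0.116 and 0.283 in BURP-21BaSq, 1.60, 0.895 and 0.169 in BURP-25BaSq and 0.459, 0.212 and 0.148 in BURP-12BaSq. BURP-17BaSq tumor 1 alone held 54.3% of all 873 counts of the gene. In the order of line means, from BURP-17BaSq down to BURP-12BaSq, each line overlapped the next. BURP-16SR had 1 count in 1 tumor and BURP-19NE had 0 counts in 3 tumors, which allows up to 0.158 CPM in the shallowest of them. Every Ba/Sq tumor was above the measured values of both lines, but BURP-21BaSq tumor 2 (0.116 CPM) and BURP-12BaSq tumor 3 (0.148 CPM) lie under that limit, so the groups are not parted at this depth.

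Upk2, which encodes the partner of UPIa, was found mainly in BURP-25BaSq, at 6.05 CPM (136 counts) in tumor 1 and 7.16 CPM (16 counts) in tumor 2. Tumor 3 (C102-M1) showed 0.169 CPM. In the other 15 Ba/Sq tumors Upk2 ran from 0 to 0.772 CPM, with at most 9 counts. All 6 tumors of BURP-19NE and BURP-16SR had 0 counts, as had BURP-24BaSq tumor 1. Only BURP-25BaSq tumors 1 and 2 stood clear of the rest.

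The type III genes were close to absent. Upk3a, the partner of UPIb in umbrella cells, gave 16 counts in all 24 tumors together. BURP-17BaSq tumor 1 held 10 of these (0.383 CPM), BURP-21BaSq tumor 1 held 2 (0.184 CPM), and 19 tumors had 0, so that a level under the 3-count limit of each library was not detectable at this depth. Upk3b gave 470 counts, of which 440 (93.6%) lay in BURP-25BaSq tumor 1 at 19.6 CPM. BURP-25BaSq tumor 2 followed with 7 counts (3.13 CPM), and tumor 3 had 0. The next highest were BURP-17BaSq tumor 2 at 0.336 CPM and BURP-16SR tumor 2 at 0.310 CPM, with 4 counts each.

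Upk3bl, which lies next to Upk3b, was the most abundant gene of the group. It was at 99.1, 85.5 and 1.01 CPM in BURP-25BaSq, 20.1, 27.9 and 18.2 in BURP-24BaSq, 11.5, 18.01 and 34.3 in BURP-12BaSq, 6.21, 35.3 and 9.76 in BURP-17BaSq and 1.10, 13.6 and 7.16 in BURP-18BaSq. BURP-21BaSq was low, at 1.10, 0.232 and 0.142 CPM. BURP-16SR was at 1.78, 0.774 and 1.68 CPM, and BURP-19NE had 0 counts in each tumor. Tumors 1 and 2 of BURP-25BaSq were above all other tumors, and the library labelled C102-M1 lay among the BURP-21BaSq tumors.

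BURP-19NE was then set against the 18 Ba/Sq tumors to ask which uroplakins the neuroendocrine-like line lacked. In edgeR's quasi-likelihood test, a call needed a log2 fold change beyond 1 in either direction and an adjusted p (Benjamini-Hochberg) under 0.05. Upk1b was lower, and Upk1a and Upk2 did not pass the test. Of the 5 uroplakins, 3 passed the filter on low counts (Upk1a, Upk1b and Upk2) and 1 was called, where 24.3% of all 20995 genes tested were called and 15% were called lower. Upk1b, Upk2 and Upk3bl had 0 counts in BURP-19NE. They passed the filter only through the Ba/Sq tumors, so they could only come out lower. Upk1b was at 2.49 ± 4.46 CPM among Ba/Sq tumors (SD, n = 18) and thus at least 15.8-fold lower by the mean in BURP-19NE, taking 3 counts in its shallowest library as the limit. Without BURP-17BaSq tumor 1 this bound was 9.93-fold. The Ba/Sq median of Upk1b was 1.07 CPM, and BURP-21BaSq tumor 2 and BURP-12BaSq tumor 3 lay under the limit of 0.158 CPM. The fitted log2 fold change of Upk1b was -8.59 (SE 2.49, adjusted p = 0.0119 from edgeR), a value that depends on the small count edgeR adds and is no bound. Upk2, at 0.913 ± 2.09 CPM among Ba/Sq tumors (SD, n = 18), was at least 5.77-fold lower by the mean, with an adjusted p of 0.0630 in edgeR. The bound was 3.45-fold without BURP-25BaSq tumor 2 (C102-M30) and 3.60-fold without both doubtful libraries, and the Ba/Sq median of 0.131 CPM lay under the limit of 0.158 CPM, so most Ba/Sq tumors could not be told from BURP-19NE. All of these bounds keep BURP-25BaSq tumor 1, at 6.05 CPM, and rest on that line. DESeq2 called Upk2 (adjusted p = 0.00381), as did edgeR with the style of the sample label as a covariate (adjusted p = 0.0362). It was also called by edgeR with all 24 tumors and 1 coefficient per line (adjusted p = 0.0208). In that fit the spread between Ba/Sq lines does not count. In BURP-19NE Upk1a was at 0.624 ± 0.196 CPM (SD, n = 3), compared with 0.594 ± 0.413 CPM among Ba/Sq tumors (SD, n = 18), a log2 fold change of 0.11 (SE 0.54, adjusted p = 0.898 from edgeR). Its direction turned without BURP-19NE tumor 2 (-0.13), and the 3 BURP-19NE values lay inside the Ba/Sq range. Upk3bl, at 21.7 ± 28.1 CPM among Ba/Sq tumors (SD, n = 18), was called and at least 137-fold lower by the mean (adjusted p = 0.00536 from edgeR). The bound was 108-fold without BURP-25BaSq tumor 1, and the Ba/Sq median was 12.6 CPM. BURP-21BaSq tumor 3, at 0.142 CPM, lay under the limit of 0.158 CPM. The call on Upk1b was lost by a narrow margin without BURP-19NE tumor 1 (adjusted p = 0.0501) and in limma-voom (adjusted p = 0.108), and limma-voom also lost that on Upk3bl (adjusted p = 0.234).

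The same comparison for BURP-16SR again gave a call on Upk1b and none on Upk1a or Upk2. Of the 3 uroplakins that passed the filter, Upk1b was called, where 19.2% of 21028 genes were called and 8.62% were called lower. Upk1b and Upk2, the latter with 0 counts in BURP-16SR, passed it only through the Ba/Sq tumors and could only come out lower. With 1 count in 3 tumors, Upk1b had a fitted log2 fold change of -6.24 (SE 2.08, adjusted p = 0.0313 from edgeR). This call was lost without BURP-16SR tumor 1 (adjusted p = 0.119), tumor 2 (0.112) or tumor 3 (0.0807), each on the edgeR scale, and in limma-voom (0.265). Upk2 was at least 3.59-fold lower by the mean (adjusted p = 0.109 from edgeR), 2.14-fold without BURP-25BaSq tumor 2 and 2.24-fold without both doubtful libraries, and the Ba/Sq median lay under the BURP-16SR limit of 0.254 CPM. These bounds too keep BURP-25BaSq tumor 1, at 6.05 CPM, and rest on that line. DESeq2 called Upk2 (adjusted p = 0.0187). So did edgeR with all 24 tumors and 1 coefficient per line (adjusted p = 0.0485), where the spread between Ba/Sq lines does not count. Upk1a was at 0.230 ± 0.066 CPM (SD, n = 3), with a log2 fold change of -1.26 (SE 0.65, adjusted p = 0.161 from edgeR) and 9 counts in all. Upk3bl, at 1.41 ± 0.554 CPM (SD, n = 3), had a log2 fold change of -3.85 (SE 1.61, adjusted p = 0.0844 from edgeR), and its values overlapped the Ba/Sq range. It was called by DESeq2 (adjusted p = 0.00311) and by that same edgeR fit with 1 coefficient per line (adjusted p = 0.0305). BURP-16SR and BURP-19NE were compared with the same 18 Ba/Sq tumors, so their differences are not independent of each other.

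Markers of other cells moved with these comparisons. All 4 skeletal muscle markers were called higher in BURP-19NE (9.33% of all genes were), where their sum was 480, 1.84 and 3.63 CPM, against 0 to 27.3 CPM in the Ba/Sq tumors. In BURP-16SR, 2 of 4 fibroblast markers and 2 of 3 endothelial markers were called higher (10.5% of all genes were), with fibroblast sums of 5678, 14939 and 442 CPM against 148.3 to 7488 CPM in the Ba/Sq tumors. Epithelial adhesion genes such as Epcam and Cdh1 were called lower in both lines, 5 of 5, and summed to between 0.631 and 2.27 CPM in BURP-19NE and 4.48 and 11.9 CPM in BURP-16SR, against 377 to 1288 CPM in the Ba/Sq tumors. Of 10 basal and squamous markers, 9 were called lower in both lines. Mesothelial markers summed to between 335 and 555 CPM in BURP-19NE and 184 and 347 CPM in BURP-16SR, above every Ba/Sq tumor (at most 171 CPM). By mean RPKM in Ba/Sq tumors, Bnc1 (13.3) and Msln (7.13) led this list, and Cldn15 was next at 0.326. The Ba/Sq sums therefore rest mostly on Bnc1 and Msln. Of these 10 genes, 3 were above 3 counts in each BURP-19NE tumor and 4 or 5 in BURP-16SR. Ba/Sq tumors had 1 to 6. Wt1 had 0 counts in BURP-19NE, and Nkain4 had 0 counts in both lines. Of the 4 tested, Msln was called higher in both lines and Bnc1 lower in BURP-16SR. The median log2 fold change of these 4 was -0.37 in BURP-19NE and -0.26 in BURP-16SR. The part of these cells in the uroplakin differences was not tested.

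Genes that carry uroplakins to the membrane or control their transcription were lower in part. Of 7 trafficking genes, 6 were tested, where 15% of all genes were called lower in BURP-19NE and 8.62% in BURP-16SR. In BURP-19NE, Mal, Rab27b (a small GTPase of the fusiform vesicles) and Myo5b (the motor that moves Rab11a vesicles) were called lower, and Sytl2, Vps33a and Rab11a were not called. Mal reached 0.0583 ± 0.0506 CPM in BURP-19NE and 0.242 ± 0.233 CPM in BURP-16SR (SD, n = 3 each), against 420 ± 587 CPM among Ba/Sq tumors (SD, n = 18), with no overlap. At these levels Mal passed the filter only through the Ba/Sq tumors. Limma-voom did not call Mal in either line (adjusted p = 0.0681 and 0.0770). In BURP-16SR, Mal and Rab27b were called lower and Sytl2, which tethers Rab27b vesicles to the membrane, was called higher at 78.6 ± 24.3 CPM (SD, n = 3), compared with 15.2 ± 26.5 CPM (SD, n = 18), and overlapped the Ba/Sq values. That call on Sytl2 (adjusted p = 0.0414 from edgeR) was lost in 15 of 21 leave-outs of 1 tumor, with adjusted p up to 0.173, and the call on Rab27b in 2 of 21. Sytl2 was also not called with no filter (adjusted p = 0.0565 from edgeR) or without both doubtful libraries (0.0704), nor Rab27b in limma-voom (0.0558). Snx31, a sorting nexin that binds uroplakins, had at most 18 counts in a tumor and was not tested. The median log2 fold change of the 6 tested genes was -3.30 in BURP-19NE and -1.29 in BURP-16SR, where the medians of all tested genes were -0.14 and -0.03.

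Of the 7 transcription factors, 4 were called lower in BURP-19NE (Pparg, Rxra, Elf3 and Grhl3) and 4 in BURP-16SR (Rxra, Elf3, Grhl3 and Klf5), where 15% and 8.62% of all genes were called lower. Grhl3 was at 67.3 ± 49.1 CPM among Ba/Sq tumors (SD, n = 18) and had 0 counts in BURP-19NE and in BURP-16SR, at least 426-fold and 265-fold lower. Elf3 was at 148.6 ± 116 CPM among Ba/Sq tumors (SD, n = 18), with 1 count in BURP-19NE and 7 in BURP-16SR. Grhl3 and Elf3 thus passed the filter only through the Ba/Sq tumors. Rxra, the partner of Pparg, was at 34.1 ± 3.11 CPM in BURP-19NE and 37.8 ± 9.49 CPM in BURP-16SR (SD, n = 3 each), against 129 ± 38.9 CPM (SD, n = 18), with no overlap. Gata3 and Foxa1 were called in neither line. In BURP-19NE Gata3 was at 116 ± 5.09 CPM (SD, n = 3), compared with 51.5 ± 41.1 CPM among Ba/Sq tumors (SD, n = 18), a log2 fold change of 1.21 (SE 0.56, adjusted p = 0.102 from edgeR). The call on Pparg in BURP-19NE, at an adjusted p of 0.0482 in edgeR, was lost in 10 of 21 leave-outs, with adjusted p up to 0.161. It was also lost with no filter (0.0648), in limma-voom (0.216) and without both doubtful libraries (0.0576). The list's median log2 fold change was -1.89 in BURP-19NE and -1.55 in BURP-16SR.

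Of the other 9 luminal markers, Krt8, Psca and Fabp4 were called lower in BURP-19NE, and Psca alone was called lower in BURP-16SR, so that 3 and 1 of 9 stand beside 15% and 8.62% of all genes. Psca had 1 count in each of these lines, against 588 ± 648 CPM (SD, n = 18), and passed the filter only through the Ba/Sq tumors. Fabp4, also a gene of adipocytes and capillaries, lost its call in 3 of 21 leave-outs, and Krt8 in 2 of 21. Limma-voom called none of these, with adjusted p of 0.516 for Krt8, 0.0688 for Psca and 0.246 for Fabp4 in BURP-19NE and 0.102 for Psca in BURP-16SR. Fabp4 was also not called with label style as a covariate (adjusted p = 0.0544 from edgeR). In BURP-16SR the simple keratins Krt8, Krt18 and Krt19 were at 123, 229 and 439 CPM (means, n = 3). They overlapped the Ba/Sq values, with 13, 14 and 10 of 18 Ba/Sq tumors below every BURP-16SR tumor. Krt20, not called, ran from 7.51 to 17.0 CPM, with 16 of 18 Ba/Sq tumors below. These keratins stood beside a total of 5 counts of Upk3b and none of Upk2. The median log2 fold change of the 9 genes was -3.16 in BURP-19NE and 0.18 in BURP-16SR.

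**Figure D3:**
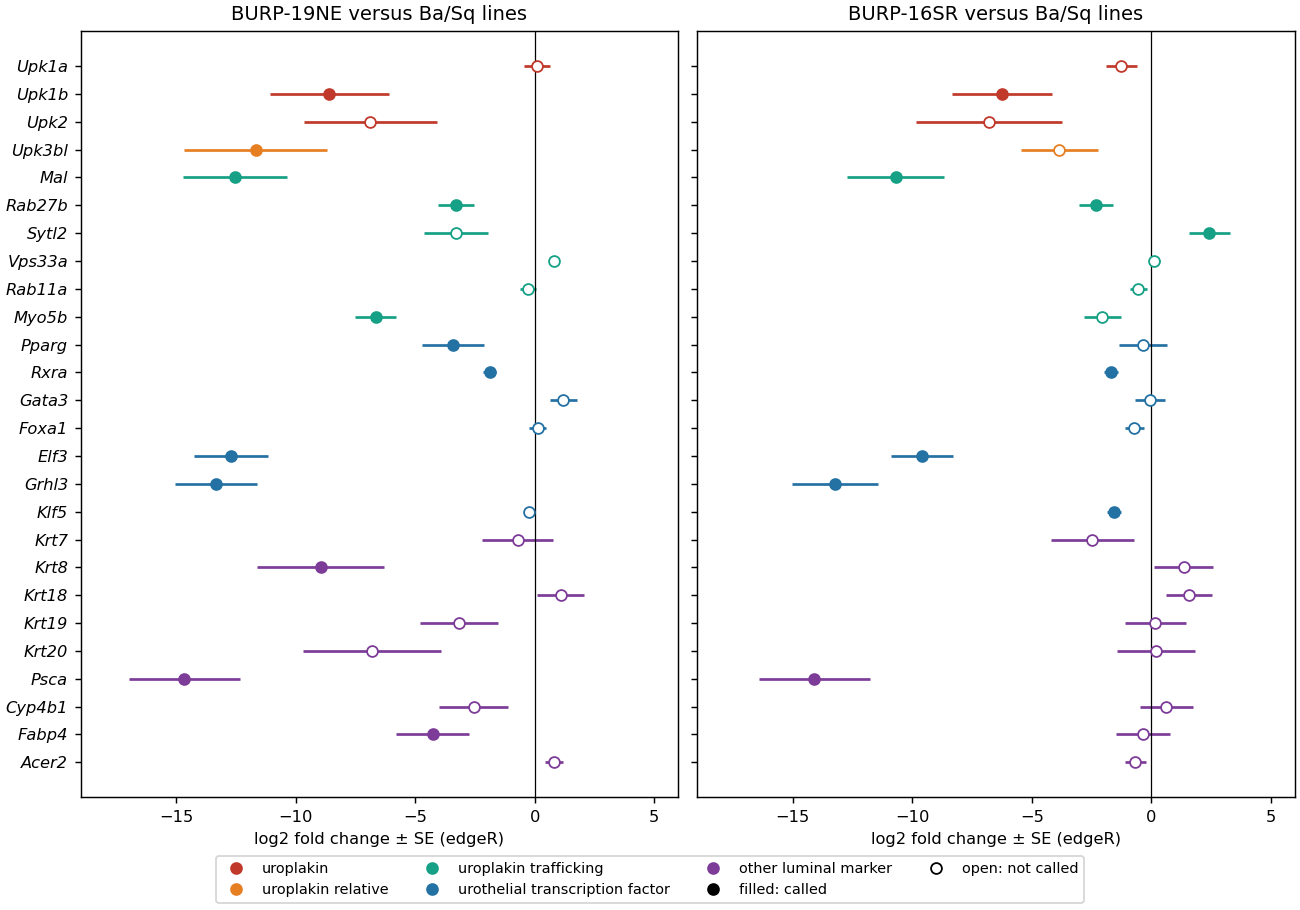
Log2 fold change (edgeR, with SE as bars) of tested uroplakins, Upk3bl and 3 gene lists in BURP-19NE (left) and BURP-16SR (right) against the 18 Ba/Sq tumors; filled points are called and open points are not. Upk1b is called in both, Upk1a in neither, and the most negative fitted values belong to genes with 0 to 6 counts per tumor in the line.

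Among the 6 Ba/Sq lines, Upk1b and Upk2 differed beyond the spread of tumors within a line, and Upk1a did not pass. The test took the 5 differences between line coefficients together, and 39.4% of 20523 genes were called in it. Upk2 passed the filter here with the help of BURP-25BaSq tumors 1 and 2, where it was highest. The largest difference between 2 line coefficients was 5.90 for Upk2 (adjusted p = 0.00323 from edgeR), 4.76 for Upk1b (adjusted p = 0.0335) and 1.88 for Upk1a (adjusted p = 0.0874), on the log2 scale. Upk3bl spanned 7.25 (adjusted p = 0.0126 from edgeR) and was not called in limma-voom (0.273) or with label style as a covariate (0.0536). Upk2 stayed called with each tumor left out in turn (adjusted p at most 0.0449 in edgeR) and was not called in limma-voom (0.202). Upk1b lost its call without BURP-12BaSq tumor 1 (0.0547), tumor 2 (0.0753) or tumor 3 (0.0767), without BURP-17BaSq tumor 1 (0.100) and without BURP-24BaSq tumor 1 (0.0541), all adjusted p from edgeR, and in limma-voom (0.0849). Upk1a gained a call without BURP-18BaSq tumor 3 (adjusted p = 0.0297 from edgeR). It also did without both doubtful BURP-25BaSq libraries, a fit that left 1 tumor in that line.

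Each line was then set against the mean of the other 5 lines, and BURP-17BaSq was higher in Upk1b and BURP-25BaSq in Upk2. In BURP-17BaSq, 1 of 3 tested uroplakins was called, where 6.18% of genes were called and 4.58% were called higher. Its log2 fold change of 2.87 (SE 0.75, adjusted p = 0.0228 from edgeR) fell to 1.05 without tumor 1 (adjusted p = 0.529). It was 2.33 (adjusted p = 0.225 from edgeR) with the other 15 tumors as 1 group. Tumor 1, which held the most Upk1b and Upk3a, also had the most adipocyte marker RNA, a sum of 89.7 CPM over 4 genes where the other Ba/Sq tumors had at most 4.86. Its fibroblast sum was 7488 CPM and its immune sum 248 CPM, the highest of the Ba/Sq tumors. Mesothelium also expresses Upk1b and Upk3b. Of its 10 markers 4 were tested, and Msln (log2 fold change 3.71, adjusted p = 0.00869 from edgeR) and Muc16 (4.16, adjusted p = 0.0118) were called higher in BURP-17BaSq. In tumor 1 the list summed to 142 CPM, where the Ba/Sq tumors ran from 27.3 to 171 CPM, and 6 of the 10 were above 3 counts, as in BURP-24BaSq tumor 3 and in no other tumor. Such sums rest mostly on Bnc1 and Msln in Ba/Sq tumors. Msln was at 69.1 CPM in tumor 1, and Wt1, Lrrn4 and Nkain4 were at 0. The part of these cells in its Upk1b level was not tested. Of all genes, 15.5% were called in BURP-18BaSq, 11.1% in BURP-12BaSq and 7.79% in BURP-24BaSq, in which no uroplakin was. BURP-18BaSq was not called for Upk1b (log2 fold change 1.85, adjusted p = 0.0964 from edgeR), but was without BURP-17BaSq tumor 1 (2.20, adjusted p = 0.0331) or BURP-21BaSq tumor 1 (2.29, adjusted p = 0.0265). For Upk1a, BURP-18BaSq was called only without its own tumor 3 (1.45, adjusted p = 0.0300 from edgeR). DESeq2 called Upk1b lower in BURP-12BaSq (-2.89, adjusted p = 0.00963), which edgeR did not (-2.85, adjusted p = 0.0888).

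In BURP-25BaSq, 1 of 3 tested uroplakins was called, where 2.59% of genes were called and 2.05% were called higher. Upk2 had 136 and 16 counts in tumors 1 and 2 and at most 9 in any other Ba/Sq tumor. It thus passed the filter with the help of the line in which it was called, and the share called is no separate support. The log2 fold change of Upk2 was 4.64 (SE 0.71, adjusted p = 0.00357 from edgeR). It was 5.27 without the library labelled C102-M1 (adjusted p = 8.6e-05 from edgeR) and 4.198 without tumor 1 (adjusted p = 0.0774). Without both doubtful libraries, which left 1 BURP-25BaSq tumor, it was 5.13. Limma-voom gave 3.37 (adjusted p = 0.0855). Upk3b did not pass the filter in any comparison and has no test. Upk3bl was called higher in BURP-25BaSq (3.03, SE 0.71, adjusted p = 0.0301 from edgeR) and lower in BURP-21BaSq (-5.67, SE 1.32, adjusted p = 0.0272), where 2.86% of genes were called and 1.05% were called lower. Without both doubtful libraries, with 1 BURP-25BaSq tumor left, these were 3.69 and -5.81. The first of these calls was lost without BURP-25BaSq tumor 1 (0.226) or tumor 2 (0.118), without BURP-12BaSq tumor 2 (0.0509) and without BURP-21BaSq tumor 2 (0.0504). The call in BURP-21BaSq was lost without any of its own tumors, with adjusted p of 0.0701, 0.149 and 0.136. Both calls on Upk3bl were also lost in limma-voom (0.600 and 0.204), with label style as a covariate (0.0894 and 0.209) and with the other 15 tumors as 1 group (0.513 and 0.188).

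The 3 BURP-25BaSq libraries are given here for genes known to accompany uroplakins. Tumor 3 is the library C102-M1, which resembled BURP-21BaSq more than its own line, so a difference between it and tumors 1 and 2 cannot be told apart from a difference between lines. In BURP-21BaSq, Pparg ran from 2.66 to 4.06 CPM, Gata3 from 12.8 to 20.4 CPM and Krt7 from 2.44 to 39.7 CPM. Pparg was at 36.9, 20.1 and 3.37 CPM, Gata3 at 148.3, 143 and 22.4 CPM, Foxa1 at 101.9, 54.2 and 24.4 CPM, and Krt7 at 641, 610 and 6.86 CPM in tumors 1, 2 and 3. Krt20, the keratin of umbrella cells, was at 5.74, 196 and 0.281 CPM, the highest value being that of C102-M30. The 2 highest values of Pparg, of Gata3 and of Upk2 among the 18 Ba/Sq tumors were those of tumors 1 and 2. Elf3 and Grhl3 went the other way, at 150 and 123 CPM in tumor 3 and at most 65.8 and 45.6 CPM in tumors 1 and 2. Msln was at 119, 56.8 and 0.675 CPM, while Wt1 and Nkain4 had 0 counts in all 3 and Lrrn4 was at 0, 0 and 0.0562 CPM. Of the 4 mesothelial markers tested, Msln was called higher in BURP-25BaSq (4.01, adjusted p = 0.0143 from edgeR). The 10 markers summed to 171, 93.6 and 56.1 CPM, with 4, 3 and 3 of them above 3 counts. These sums, too, rest mostly on Bnc1 and Msln, and the part of such cells in these levels was not tested.

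**Figure D4:**
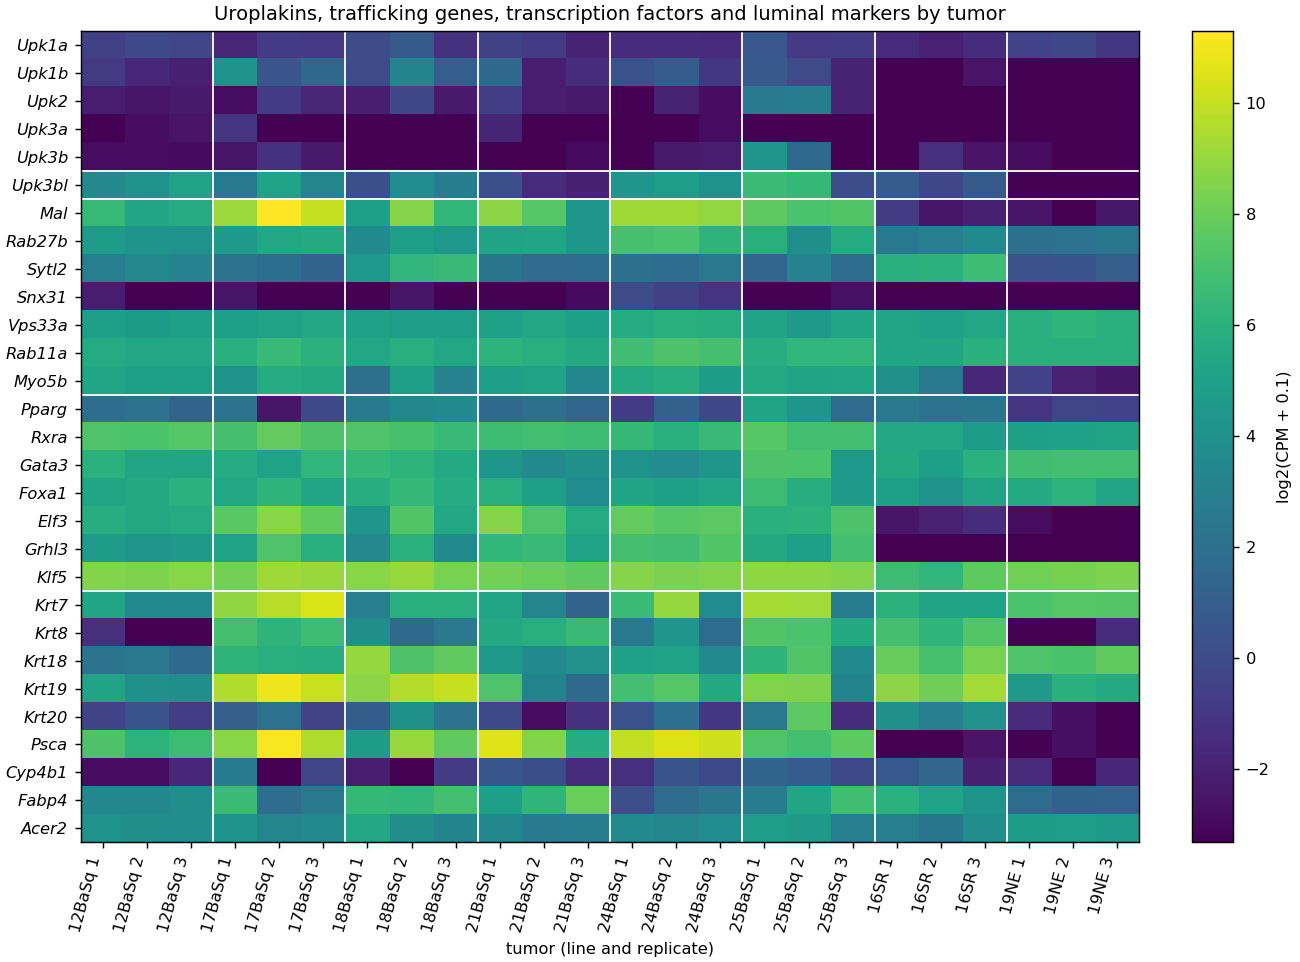
Log2(CPM + 0.1) of the uroplakins, Upk3bl, trafficking genes, transcription factors and other luminal markers (rows) in 24 tumors (columns, by line); white lines part the lists and the lines. In BURP-25BaSq, Upk2, Upk3b, Upk3bl, Pparg, Gata3 and Krt7 are higher in tumors 1 and 2 than in tumor 3, while Elf3 and Grhl3 are higher in tumor 3. Krt7 has a higher mean in BURP-17BaSq (917 CPM) than in BURP-25BaSq (419 CPM). Mal, Elf3, Grhl3 and Psca are dark in BURP-16SR and BURP-19NE.

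Whether the uroplakins rank the Ba/Sq lines alike was asked by correlating line means of log2 CPM. Over 10 pairs of the 5 genes and 6 lines, no pair had an adjusted p under 0.05 in a two-sided exact permutation test. Upk2 and Upk3b had the lowest p (r = 0.88, exact permutation p = 0.118, adjusted p = 0.931, rho = 0.03), and r was -0.26 without the 2 lines farthest from the median, so the relation rests on those lines. Without C102-M1 r was 0.95 (adjusted p = 0.903 from the exact permutation test), and without both doubtful libraries 0.95 (adjusted p = 0.463). The assembly partners Upk1a and Upk2 had r = 0.48 (exact permutation p = 0.360, adjusted p = 0.931, rho = 0.54), and Upk1b and Upk3a had r = 0.14 (exact permutation p = 0.761, adjusted p = 0.931, rho = 0.03). Many of these values lie near or under the 3-count limit, and a missed threshold does not show that the genes vary apart.

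For each uroplakin the genes most like it over the 18 Ba/Sq tumors, by Pearson's r of log2 CPM, were also listed, as a description over tumors that share lines. For Upk1b these were Nfatc2 (r = 0.89), Asb7 (0.82) and Krt19 (0.80). For Upk2 they were Srgap1 (0.88), Prss36 (0.87) and Gm48804 (0.87), with Spearman's rho of 0.64, 0.49 and 0.70. For Upk3b they were Arl6ip1 (0.94), Ptprr (0.94) and Cog7 (0.91), but rho was 0.56, 0.74 and 0.51, and 1 tumor carried 93.6% of the counts. Upk1a was closest to Mau2 (0.88), Ankrd11 (0.87) and Cog8 (0.87), and Upk3a to Sult1a1 (0.79), St6galnac5 (0.78) and Mrgprg (0.76), the last 3 with rho of 0.50, 0.37 and 0.32. For Upk3bl they were Nexmif (0.90), Gnal (0.89) and Ptprk (0.89). Over all 24 tumors r of Upk1b with Asb7 was 0.14, while that of Upk1a with Mau2 was 0.84.

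The study compares male with female Ba/Sq lines, and no uroplakin was called between them, where 2.31% of 17922 genes were called. Upk1b was at 3.95 ± 6.06 CPM in male tumors and 1.03 ± 0.92 CPM in female tumors (SD, n = 9 each), a log2 fold change of 1.97, male over female (adjusted p = 0.170 from edgeR). Without the male line BURP-12BaSq it was 2.52 and was called (adjusted p = 0.0451). Upk1a was at 0.692 ± 0.430 CPM in male and 0.497 ± 0.395 CPM in female tumors (SD, n = 9 each), a log2 fold change of 0.44 (adjusted p = 0.586 from edgeR). Upk2, Upk3a and Upk3b did not pass the filter here. Each sex stands for 3 lines, and with counts summed per line edgeR called 0 of all genes (1388 at an unadjusted p under 0.05), where DESeq2 called 768 and limma-voom 361 over tumors.

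**Figure D5:**
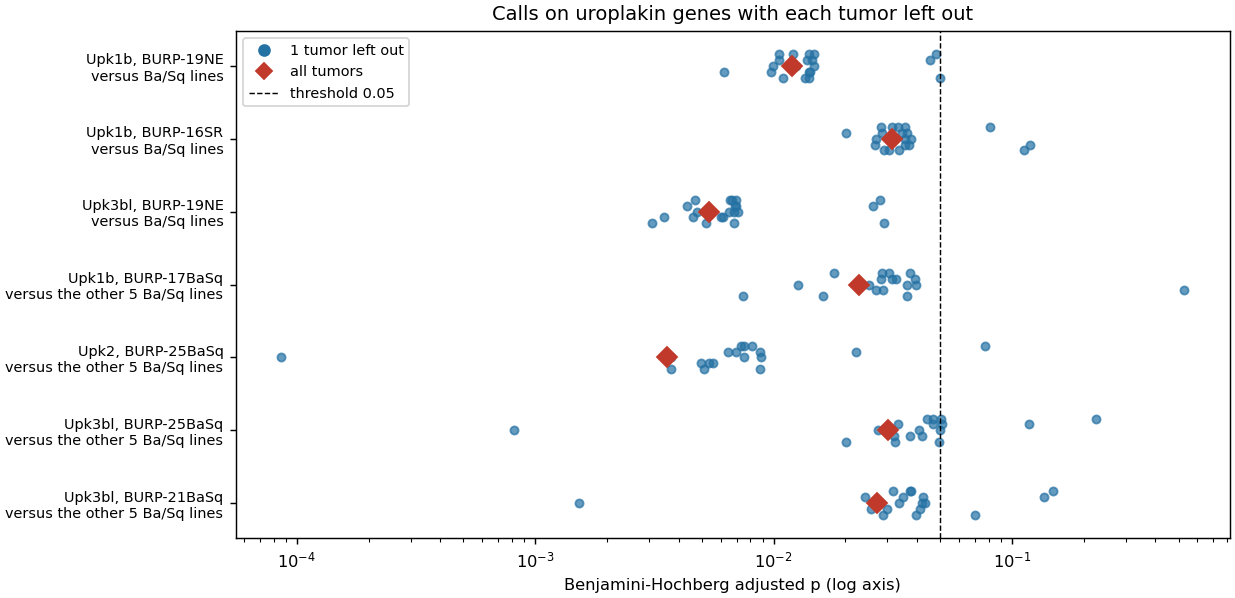
Adjusted p (logarithmic axis) of 7 calls on Upk1b, Upk2 and Upk3bl with all tumors (red diamonds) and with each tumor left out in turn (blue points); the dashed line is 0.05. The point far to the right for Upk1b in BURP-17BaSq, at 0.529, is the fit without its tumor 1.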

How the data were processed

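Total RNA of 24 subcutaneous BURP tumors was depleted of ribosomal RNA and sequenced by the study. The authors deposited 1 table of estimated counts per gene. The submitters' processing notes name CASAVA 1.8.2, STAR 2.6.0a and RSEM 1.3.1 with the genome build GRCm38. RSEM shares reads of near-identical sequence between genes, so 12.5% of values were not whole, and these were rounded before testing. Gene symbols came from the GRCm38 annotation, which matched 99.6% of identifiers. The line of each tumor came from the sample labels, and subtype and sex of the lines from the study's description of them.

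Counts were filtered with filterByExpr, scaled by TMM and tested with edgeR 4.0.16 in R 4.3.3 (quasi-likelihood test, Benjamini-Hochberg adjustment over all genes tested). Calls needed a log2 fold change beyond 1 in either direction and an adjusted p under 0.05. The 18 Ba/Sq tumors formed 1 group against BURP-19NE or BURP-16SR. Each Ba/Sq line had a coefficient of its own in comparisons among lines. Log2 CPM carried a prior count of 2. RPKM used the union of annotated exons. The fits were run on simulated counts drawn independently for each tumor, with changed genes at higher counts than most uroplakins. That check therefore does not cover tumors that share a line or counts this low. Total counts per tumor (9295708 to 25370320) limit what is detectable, and 3 counts in a library were taken as its floor.

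The uroplakins, Upk3bl, the lists of trafficking genes, transcription factors and luminal markers, and the markers of other cells were chosen with earlier results of these data known. Named were the uroplakins, the genes of these lists, and for each uroplakin the 3 genes with the highest Pearson's r over the Ba/Sq tumors. Alternatives were DESeq2 1.42.0, limma-voom (limma 3.58.1), other size factors, and no filter or at least 10 counts in every tumor. Ribosomal RNA genes, each tumor or each line were also left out, and other groupings were tried. The style of the sample label, read here as cage and mouse or as passage, was a covariate. Every BURP-21BaSq tumor has a passage label, and BURP-12BaSq, BURP-25BaSq and BURP-19NE have none, so label style is in part confounded with line. The labels do not say whether the style goes with a sequencing batch. Leaving out the libraries labelled C102-M1 and C102-M30 together, the bounds of folds with tumors left out, and the alternatives for Upk3bl and for the called genes of the lists, were added after seeing the data. Promoter sequence is from RefSeq (GRCm38).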

Additional observations from a re-analysis of the deposited data

Results flagged for a closer look

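Within the 9 Ba/Sq tumors of each sex, 5 of 10 highest values stood apart from the other tumors of their group by Dixon's test, which by chance marks about 1 in 20 groups. That rate assumes independent and normally distributed values, which tumors that share lines and genes mostly at 0 do not give. Upk1a in female tumors was at 1.47 CPM in BURP-25BaSq tumor 1, and the next value was 0.643 CPM. Upk3b in female tumors was at 19.6 CPM in the same tumor, followed by 3.13 CPM in tumor 2 of that line. Upk3b in male tumors was highest in BURP-17BaSq tumor 2, at 0.336 CPM or 4 counts, where the next value was 0.0986 CPM. Upk3a in male tumors was at 0.383 CPM (10 counts) in BURP-17BaSq tumor 1, above 0.0740 CPM. Upk3a in female tumors was at 0.184 CPM (2 counts) in BURP-21BaSq tumor 1, above 0.0413 CPM, and lies under the 3-count limit.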

How the results depend on the processing

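Of the fold changes of uroplakins and Upk3bl, 275 kept direction and call under other processing and 713 with a tumor or line left out, while 15 and 18 lost a call, 9 and 5 gained one, and 8 and 7 reversed, none of the last past the threshold in the original fit. For Upk1a in BURP-19NE the log2 fold change became -0.14 with label style as a covariate and ran from -0.13 (without BURP-19NE tumor 2) to 0.29 with 1 tumor left out, with -0.0026 without BURP-21BaSq tumor 3. With label style, which all tumors of that line share, Upk1b and Upk2 in BURP-21BaSq became 0.79 and 0.41. With the line against the other 15 tumors, Upk2 in BURP-18BaSq became -1.29, and Upk3bl in BURP-12BaSq and BURP-17BaSq -0.015 and -0.39. With 1 tumor left out, Upk1b in BURP-24BaSq ran from -0.93 to 0.031 (without BURP-21BaSq tumor 1), Upk2 in BURP-17BaSq from -1.36 to 0.16 (its tumor 1) and in BURP-18BaSq from -1.18 (its tumor 2) to 0.82, and Upk3bl in BURP-17BaSq from -0.28 (its tumor 2) to 1.21. Without both doubtful libraries Upk1b in BURP-25BaSq became 0.0085. Upk3bl between the sexes became 1.47 in limma-voom and ran from -1.46 to 0.44 (without BURP-25BaSq) with 1 line left out. Over line means, r of Upk1b became 0.12 with Upk2 and 0.097 with Upk3b without C102-M1, and -0.079 with Upk3a at a prior count of 0.5. Without both doubtful libraries it became 0.041 with Upk1a, 0.24 with Upk2, -0.030 with Upk3a and 0.20 with Upk3b, none called. Called genes numbered 5108 (BURP-19NE), 4029 (BURP-16SR), 8094 (among lines), 9443 (each line) and 414 (sex), while a minimum of 10 counts in every tumor, under which fewer genes were tested, gave 2001, 1594, 4451, 3673 and 191. Each line against the other 15 tumors gave 3625. For sex, DESeq2 gave 768 and edgeR on counts summed per line 0 (1388 at an unadjusted p under 0.05). Leaving out 1 tumor gave 2670 to 4346 calls for BURP-16SR, lowest without its tumor 1, and leaving out 1 line gave 225 (BURP-24BaSq) to 1196 (BURP-17BaSq) for sex, with 865 without BURP-12BaSq. In BURP-25BaSq the 532 calls became 167 without tumor 1 and 1620 without C102-M1, and in BURP-21BaSq the 587 became 92 without its tumor 2 and 1391 without C102-M1. Among the called genes of the lists, 20 results lost a call under other processing and 68 with a tumor left out, and none reversed. The causes were not tested. With ribosomal RNA genes left out, the mean of Upk1a in BURP-24BaSq was 0.297 CPM and that of Upk3b in BURP-12BaSq 0.0466 CPM. No paired analysis was possible. As the labels are read here, mouse and passage numbers that recur in different lines belong to mice of different cages or to passages of separate lines. The replicate numbers used here follow the order of the records. Upk3a, with 16 counts, and Upk3b, with 93.6% of its counts in 1 tumor, passed the filter in no comparison.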
